A study of Mus musculus with 278 samples.

Results

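A set of 35 genes that build the contacts between epithelial cells were followed through single cells of the mouse mammary gland, out of 25136 genes kept in the count files. They were chosen by name as known members of cell junctions, and all 35 were present. By role they were 15 tight junction and cell polarity genes, 6 adherens junction genes, 11 desmosome genes and 3 gap junction genes. Each library was 1 FVB/NJ mouse cell captured on the Fluidigm C1 chip, a device that isolates cells in chambers and makes cDNA in each. Adult basal cells (sorted as Lin-CD29hiCD24+) and adult luminal cells came from separate sorts. Pregnancy cells were total epithelium that had not been sorted by lineage, and the study took them at mid-pregnancy. Cells with 50000 or more reads in kept genes were used, which kept 85 adult basal cells out of 112, 41 adult luminal cells out of 43 and 96 pregnancy cells out of 123.

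The mammary duct has an inner layer of luminal cells, which face the lumen and make milk, and an outer layer of contractile basal cells. Tight junctions seal the space between luminal cells near the lumen, and in late pregnancy and lactation they are known to close so that milk does not leak back. Adherens junctions tie cadherins to actin, desmosomes tie desmosomal cadherins to keratin filaments, and gap junctions are channels that join the cytoplasm of neighbouring cells.

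The labels name no animal and cells are not replicates, so a group was treated as 1 sample. Differences are therefore described without a test or p-value. Values are reads summed over the cells of a group and expressed as counts per 1000000 reads of the group (CPM), with exact Poisson intervals, and shares of cells have exact Clopper-Pearson intervals. All intervals are at the 95% level and cover counting error only, because the reads were amplified and carried no molecular identifiers. Shares of cells were taken after every cell was thinned to 50000 reads. The share of cells and the values of single cells are given beside the sums.

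Pregnancy cells were placed in classes by the percent of the study's basal and luminal lineage genes they detected, with the junction and milk genes left out of those lists. There were 36 cells of a basal class, 30 of a luminal class, 28 mixed cells that passed both thresholds and 2 that passed neither. The thresholds were the 10th percentile of the adult sorts, and 10 and 6 of the 96 pregnancy cells lay within 3 percentage points of the basal and luminal thresholds. Krt14, a basal keratin, stood at 3154 CPM in adult basal cells, 1917 in the basal class, 58.8 in adult luminal cells and 142.9 in the luminal class. Krt18, a luminal keratin, stood at 2865 CPM in adult luminal cells, 873 in the luminal class, 181.9 in adult basal cells and 124.8 in the basal class. Both markers went with the labels and the classes, but other luminal markers did not stay level. Areg stood at 890.2 CPM in adult luminal cells and 2.47 CPM in the luminal class, Cited1 at 889 and 27.2 CPM and Prlr, the prolactin receptor gene, at 5730 and 439.4 CPM, whereas Kit was at 61.9 and 83.6 CPM and Elf5 at 33.1 and 65.6 CPM. Areg, Cited1 and Prlr belong to the mature luminal marker list and Kit and Elf5 to the luminal progenitor list, so stage cannot be told apart from the kind of luminal cell either. Stage and sort cannot be told apart, since every pregnancy cell was unsorted for lineage and every adult cell was sorted.

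Other facts of the libraries touch the results below. Milk genes took 33.4% of the reads of the luminal class, 26.0% of the mixed cells and 1.25% of adult luminal cells. The fibroblast marker list, all 6 of whose genes had reads, summed to 3231 CPM in the basal class against 48.3 CPM in adult basal cells, where 5 of 6 had reads. It summed to 460.6 CPM in the luminal class and 1752 CPM in adult luminal cells. At least 3 markers of another cell type were found in 11 of 36 cells of the basal class, 4 of 30 of the luminal class, 6 of 41 adult luminal cells and 1 of 85 adult basal cells. The part of these markers in the results was not tested, and values without those cells are given where they change a call. Cells of the basal class also detected up to 14.7% of the luminal list, against at most 5.65% in adult basal cells.

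Upstream regions of 3 genes show the letters in front of genes that lie at opposite ends of the adult contrast described next. RefSeq windows on GRCm38.p6 were matched for 23 of the 35 genes. Each line gives the 250 bases before the start of a gene, 5′ to 3′ on the strand of the gene, and no annotated exon overlapped them. Capitals mark the 6-letter E-box CAGGTG or its reverse complement CACCTG, the kind of site that repressors of epithelial genes such as Snai1 and Zeb1 are known to bind.
Cldn4, chr5:134946935-134947184, minus strand: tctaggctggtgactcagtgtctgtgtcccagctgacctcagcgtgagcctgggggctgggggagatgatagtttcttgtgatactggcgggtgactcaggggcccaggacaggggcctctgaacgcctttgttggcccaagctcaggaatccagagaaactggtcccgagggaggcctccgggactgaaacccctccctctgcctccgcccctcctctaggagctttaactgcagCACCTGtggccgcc
Gjb2, chr14:57104703-57104952, minus strand: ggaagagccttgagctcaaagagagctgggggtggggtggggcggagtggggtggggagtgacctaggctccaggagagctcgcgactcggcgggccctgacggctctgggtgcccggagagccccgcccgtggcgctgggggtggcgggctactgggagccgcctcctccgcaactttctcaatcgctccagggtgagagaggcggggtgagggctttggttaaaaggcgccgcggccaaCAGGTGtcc
Gja1, chr10:56377050-56377299, plus strand: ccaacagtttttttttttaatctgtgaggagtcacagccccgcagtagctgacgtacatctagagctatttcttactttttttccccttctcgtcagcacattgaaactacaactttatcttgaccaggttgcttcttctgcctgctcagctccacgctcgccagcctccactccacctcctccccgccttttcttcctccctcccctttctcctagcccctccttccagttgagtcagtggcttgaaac
The E-box letters began 14 bases before the start of Cldn4 and 9 bases before that of Gjb2, and were not in the Gja1 window. On either strand they were in the windows of 11 of the 23 matched genes (47.8%), of which 9 of 14 were tight junction genes, and in those of 19.4% of all 27025 genes. They did not go with the adult contrast gene by gene: the luminal genes Cldn1, Cldn3, Cgn, Marveld2, Nectin4 and Gjb6 had no match, and F11r, Pard3 and Pkp4, which were within 2-fold, had one or more. A match is only these letters in this window, and binding was not measured.

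**Figure D1:**
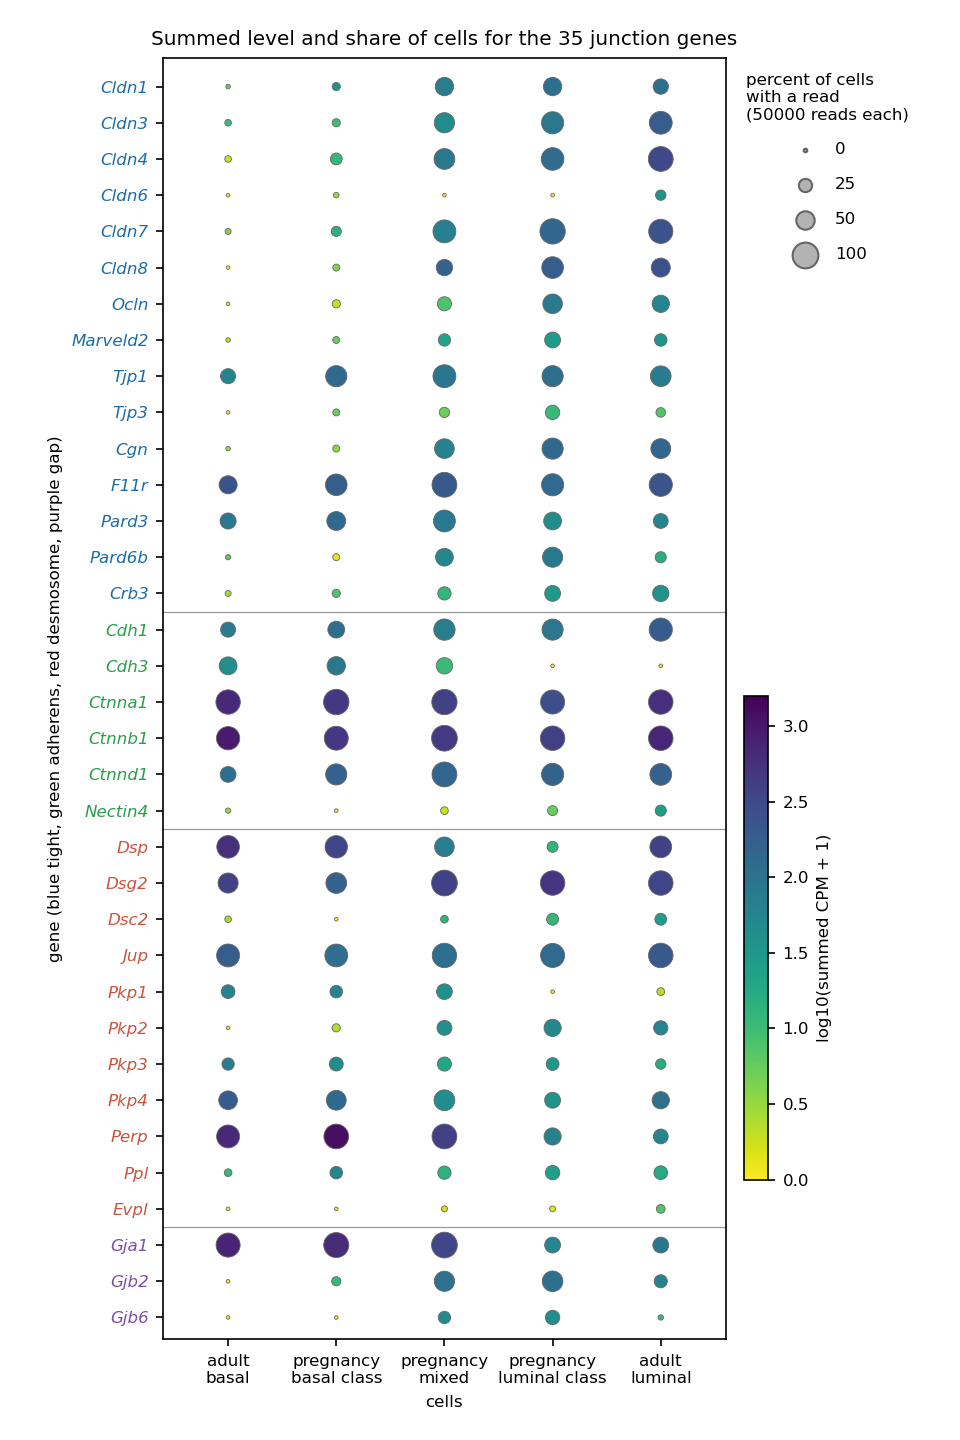
Summed level (colour, log10 of CPM + 1) and percent of cells with 1 or more reads (dot area, cells thinned to 50000 reads) of the 35 junction genes (rows, grouped by junction) in 5 sets of cells (columns). Claudins and other tight junction genes are dark and large in the luminal columns, Ctnna1 and Ctnnb1 in every column, and Perp and Gja1 in the basal columns.

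The adult sorts show where each junction gene lies before pregnancy. Most of the listed tight junction genes were luminal. Of 15, 12 were 2-fold or more higher in adult luminal than adult basal cells and none lower, with a median log2 ratio of 5.16. The adherens junction genes split as 2 higher, 1 lower and 3 within 2-fold (median 0.20), the desmosome genes as 3, 3 and 5 (median -0.12), and the gap junction genes as 2, 1 and 0. In all, 19 of 35 genes were higher and 5 lower, where 36% of 14355 genes tested were 2-fold or more higher and 24% lower and the median of all genes was 0.32. Of the 35 genes, 12 (among them Cldn3, Cldn4, Cldn7, Cldn8, Ocln, Cgn and Pkp2) belong to the luminal lineage list and 2 (Cdh3 and Gja1) to the basal one. Those lists were drawn from separate bulk RNA of the sorted layers, so these directions were known from there.

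Claudins are the membrane proteins that form the strands of the tight junction and set which ions pass. Cldn4 ran from 0 to 1139 CPM with a median of 295.2 CPM over adult luminal cells and was found in 38 of 41 of them (92.7%, 80.1 to 98.5%). In adult basal cells it was found in 4 of 85 and its highest cell reached 31.4 CPM. Most luminal cells thus lay above every basal cell, and the summed level was 407-fold higher (log2 ratio 8.67, 8.14 to 9.26). Cldn7, a claudin of ductal epithelia that is also found below the tight junction, summed to 240.1 CPM against 3.30 CPM (log2 ratio 6.18) and was found in 36 of 41 luminal cells. Cldn3, a sealing claudin that lies 39279 bases from Cldn4 on chromosome 5, summed to 184.8 CPM against 9.27 CPM (log2 ratio 4.32). All 32 adult luminal cells with Cldn3 also had Cldn4.

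Cldn8, a claudin that limits the passage of cations, was patchy. It was found in 22 of 41 adult luminal cells (53.7%), with a median of 16.0 CPM and a highest cell at 1184 CPM, and had no read in 85 adult basal cells, which allows a share of up to 3.53%. Against the floor of 3 reads over the basal cells, its level of 251 CPM was at least 2989-fold higher. Cldn6, a claudin of immature epithelia, had no basal read either, was found in 6 of 41 luminal cells and summed there to 34.6 CPM, at least 412.5-fold above the floor. Cldn1, a barrier claudin, summed to 110.9 CPM in luminal and 4.76 CPM in basal cells, but every basal read came from 1 cell.

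Of the proteins that span the membrane beside claudins, occludin (Ocln) summed to 54.1 CPM against 0.140 CPM (log2 ratio 8.60) and tricellulin (Marveld2), which sits where 3 cells meet, to 31.9 against 0.896 CPM (5.16). Cingulin (Cgn), a cytoplasmic plaque protein, summed to 138.4 against 2.04 CPM (6.08), and Crb3, an apical polarity protein, to 36.1 against 1.74 CPM (4.38). Tjp3, a scaffold, had 159 luminal reads and none in basal cells. Other scaffold and polarity genes were shared by both layers: Tjp1, which encodes ZO-1, was at 74.6 and 55.9 CPM (0.41), the adhesion protein F11r (JAM-A) at 228.7 and 240.5 CPM (-0.07), and the polarity gene Pard3 at 54.8 and 78.8 CPM (-0.52). Pard6b, the partner of Pard3, was low in both, at 14.9 and 5.18 CPM, and 95.7% of its basal reads came from 1 cell.

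Per kilobase of exon, Cldn4 led the listed tight junction genes of adult luminal cells at 176.1 RPKM. Cldn7 at 165.3, Cldn3 at 146.4 and Cldn8 at 106.5 RPKM came next. In adult basal cells F11r led the listed ones at 96.9 RPKM, and no listed claudin there passed Cldn3 at 7.34 RPKM. Of the further claudins, Cldn12 summed to 76.5 CPM in adult basal cells, against 9.27 CPM for Cldn3. The intervals of the summed counts behind Cldn7 and Cldn3 did not meet, but cells of each gene spread far more widely than that.

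Cadherins divided the layers. P-cadherin (Cdh3), a classical cadherin of basal epithelia, was found in 40 of 85 adult basal cells (47.1%, highest cell 826 CPM) and in 0 of 41 adult luminal cells at this depth, which allows up to 7.32%. Its sums were 40.0 and 0.121 CPM, a log2 ratio of -8.37 (-10.65 to -6.82) that rests on 3 luminal reads in 1 cell. E-cadherin (Cdh1), the main cadherin of epithelia, which lies 46438 bases from Cdh3 on chromosome 8, was found in 33 of 41 luminal and 28 of 85 basal cells, at 191.7 and 74.7 CPM (1.36, 1.29 to 1.43). The catenins that carry cadherins to actin were high in both layers, with Ctnnb1 at 738 and 922 CPM (luminal, then basal), Ctnna1 at 580.4 and 679.6 CPM, and p120-catenin (Ctnnd1) at 164.8 and 107.3 CPM. Nectin4, an adhesion protein of the adherens junction, was at 25.7 and 1.93 CPM (3.73).

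Among desmosome genes the plakophilins, which link desmosomal cadherins to desmoplakin, were divided between the layers. Pkp2 summed to 55.4 CPM in luminal cells with no basal read (at least 659.5-fold), whereas Pkp1 summed to 59.2 CPM in basal and 1.17 CPM in luminal cells (log2 ratio -5.66) and Pkp3 to 69.3 and 15.95 CPM (-2.12). The 2 plakophilins Pkp1 and Pkp2 met in 1 of 41 adult luminal cells, where 0.878 cells would have both if they were independent. With no basal read of Pkp2, they could not meet in basal cells. Perp, a membrane protein of desmosomes in stratified epithelia, ran up to 3299 CPM with a median of 398.1 CPM in basal cells (67 of 85) and had a median of 1.11 CPM in luminal cells (13 of 41), which gave a log2 ratio of -3.67 (-3.75 to -3.59). Its cells overlapped between the sorts, as 472.5 CPM was the highest luminal value.

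Other desmosome genes went either way. Dsg2, the desmosomal cadherin of simple epithelia, was at 348.7 and 379.7 CPM (luminal, then basal), and its partner Dsc2 at 26.7 and 1.71 CPM (3.96). Jup (plakoglobin) was at 209.4 and 179.3 CPM, Pkp4 at 103.8 and 195.4 CPM, and the periplakin gene Ppl at 16.7 and 11.0 CPM. Desmoplakin (Dsp), which anchors keratins, was at 378.4 and 590.9 CPM (-0.64), with 35.3% of the luminal reads in 1 cell and a ratio of -1.13 without the top cell of each sort. Envoplakin (Evpl) had 172 luminal reads and 1 basal read.

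The connexins, the gap junction proteins, also divided. Gja1 (connexin 43) had a median of 437.2 CPM in basal cells, of which 74 of 85 had it, and of 0 in luminal cells, of which 15 of 41 had it. The sums were 753 and 87.9 CPM (log2 ratio -3.10, -3.16 to -3.04). Gjb2 (connexin 26) had no basal read, was found in 10 of 41 luminal cells and summed there to 57.6 CPM, at least 686-fold above the floor. Gjb6 (connexin 30), its neighbour at 18598 bases on chromosome 14, summed to 10.9 CPM, with 96.7% of the reads in 1 luminal cell.

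Adult luminal cells were themselves uneven. In 9 of 41 cells luminal progenitor markers led, and in 32 mature luminal markers led or tied. The fibroblast list summed to 4511 CPM in the 9 cells and 1235 CPM in the 32. At least 3 markers of another type were found in 2 of the 9 and 4 of the 32. Their part in the values against the 9 cells was not tested. Dsp stood at 22.2 CPM in the 9 cells (3 had it, and 90.8% of the reads were in 1 cell) and at 445.2 CPM in the 32 (26 had it). Pard6b went the other way, at 58.9 CPM (5 of 9 had it) and 6.60 CPM (2 of 32), as did Gjb2, at 154.3 CPM (5 of 9) and 39.5 CPM (5 of 32). Cldn6 and Tjp3 had no read in the 9 cells. With the 9 cells alone as the luminal side, 9 genes in place of 5 were 2-fold or more lower than in adult basal cells and 17 in place of 19 higher, where 40.7% and 27.1% of 13285 genes were.

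Of 82 further junction genes, 57 had a value in this contrast, 13 higher and 26 lower with a median of -0.48. The largest by the naming rule were Gja4 (connexin 37) at 59.5 and 0.252 CPM, with 96.9% of the luminal reads in 1 cell, the claudin Cldn10 at 216.8 and 7.50 CPM, and Marveld3 at 37.1 and 3.19 CPM, all luminal then basal. In the other direction were the channel gene Panx1 at 0.0806 and 37.4 CPM and the alpha-catenin-like Ctnnal1 at 5.16 and 115.8 CPM. The 32 further tight junction genes with a value gave 7 higher and 13 lower (median -0.25), unlike the listed ones.

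**Figure D2:**
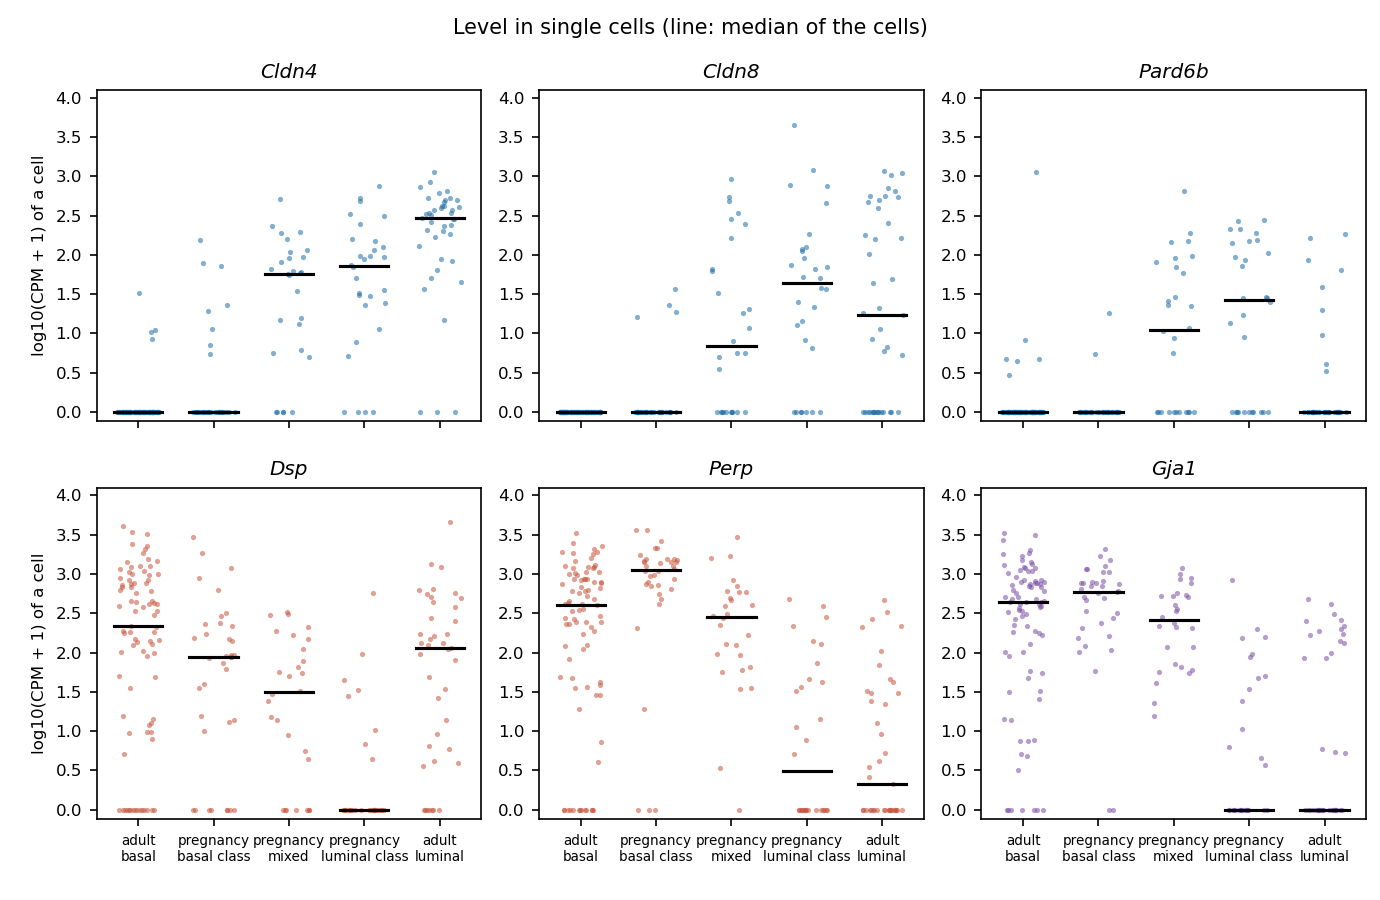
Level of 6 junction genes in single cells (points, log10 of CPM + 1, jittered sideways) with the median of the cells (black line), for adult basal (85), pregnancy basal class (36), mixed (28), luminal class (30) and adult luminal (41) cells. Cldn4 and Cldn8 have medians of 0 in both basal sets, with single pregnancy cells up to 155.5 and 35.3 CPM, Perp and Gja1 are high there, and Dsp has a median of 0 in the pregnancy luminal class.

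The comparison of pregnancy with the adult asks how junctions differ while the gland prepares for milk, and it was made within each layer. Of the 15 listed tight junction genes 10 were 2-fold or more higher in the pregnancy basal class than in adult basal cells. In the other direction 1 was lower, and the median log2 ratio was 2.03. The 6 adherens junction genes gave 1 higher and 1 lower (median 0.02), and the 10 desmosome genes with a value gave 2 and 2 (median -0.59). In all, 14 of 33 genes with a value were higher and 4 lower, against 29.8% of 13889 genes higher and 22.6% lower, with a median of all genes of 0.08. Evpl and Gjb6 had too few reads for a value. The 31 further tight junction genes with a value did not share the rise, with 8 higher and 8 lower (median -0.28).

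Most of the tight junction genes that were higher stayed scarce. Cldn4 summed to 10.8 CPM (8.15 to 14.0) in the basal class against 0.784 CPM (0.521 to 1.13) in adult basal cells, a log2 ratio of 3.78, and was found in 7 of 36 against 4 of 85 cells. Cldn7 was at 13.5 and 3.30 CPM (2.03), with 60.0% of the pregnancy reads in 1 cell, and Cldn8 had 16 reads in the basal class and none in adult basal cells. The luminal class had far more of each, with Cldn4 at 119 CPM. Cldn6, Ocln, Marveld2, Tjp3 and Crb3 were all at or under 6.93 CPM in the basal class.

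Several of these rises rested on single cells. The higher count of Cldn1 (37.6 against 4.76 CPM, 2.98) came from 1 pregnancy cell, number 9, with 98.0% of the reads, and cell 9 also held all Cldn6 reads and 84.4% of the Cldn3 reads of the basal class. Without the cell with the most reads of each gene, 8 genes in place of 14 were higher. The share over all genes was not computed for this setting, so the drop is not known to be particular to junction genes. With the cells that had markers of another type left out, the tight junction median was 0.71 in place of 2.03, Marveld2 gave -1.75, Cgn -1.35 and Crb3 -1.12 in place of 2.31, 0.29 and 2.00.

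Among the listed tight junction genes, Tjp1 was the one that rose in many basal cells. It went from 28 of 85 adult basal cells to 24 of 36 in the basal class (32.9% and 66.7%), where the median cell detected 2276 and 3009.5 genes of all kinds, and its median cell from 0 to 57.2 CPM. The sums were 55.9 and 132.3 CPM, a log2 ratio of 1.24 (1.11 to 1.37). It was 0.67 without the cells that had markers of another type, so the 2-fold line was not reached there. Pard3 had a ratio of 0.71 and F11r of -0.44, both within 2-fold. Pard6b had 2 reads in the basal class.

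Cadherins and catenins of basal cells were mostly within 2-fold. Cdh3 was found in 18 of 36 cells of the basal class against 40 of 85, and its median cell was at 9.57 against 5.82 CPM. The sums were 81.5 and 40.0 CPM, a log2 ratio of 1.03 (0.87 to 1.19) that just passed 2-fold, and it was 0.85 without the cell with the most reads of each set and -0.20 with the mixed cells counted in. Cdh1 had a ratio of 0.52, Ctnnd1 0.62, Ctnna1 -0.49 and Ctnnb1 -0.90. Nectin4, with no read in the basal class, was at least 3.34-fold lower.

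Among desmosome genes of basal cells, Dsg2 was lower in its sum, and Ppl was higher in some cells only. Dsg2 summed to 379.7 CPM in adult basal cells and 165.8 CPM in the basal class (-1.20, -1.30 to -1.10). It was found in 51 of 85 and 23 of 36 cells, and its median cell was at 126.6 and 97.4 CPM. Its pregnancy sum was 129.4 CPM for title numbers up to 55 and 218 CPM above. The Dsg2 ratio was -0.96 without the cells that had markers of another type. Perp had a median cell of 1120 CPM in the basal class against 398.1 CPM, was found in 33 of 36 against 67 of 85 cells, and summed to 1210 against 705.7 CPM (0.78, 0.74 to 0.82). It was the most abundant of the 35 genes in the basal class per kilobase, at 636.3 RPKM. Ppl was 4.50-fold higher, at 49.7 and 11.0 CPM, with 42.6% of the pregnancy reads in 1 cell. All of those reads came from cells with title numbers up to 55 (84.3 CPM), and the 16 cells above 55 had none (-2.97 at the floor). Dsp (-0.75), Jup (-0.67), Pkp3 (-0.59), Pkp4 (-0.59) and Pkp1 (0.03) were within 2-fold, and 51.0% of the Dsp reads of the basal class were in 1 cell. Gja1 was within 2-fold too (-0.25), found in 34 of 36 cells, and Gjb2 had 53 reads in 5 of 36 cells and none in adult basal cells.

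Of the further junction genes, 57 had a value for basal cells, 14 higher and 13 lower (median -0.26). Jam2, an adhesion protein of endothelial and other cells, was at 147.3 and 8.51 CPM (pregnancy, then adult), N-cadherin (Cdh2) at 35.2 and 2.83 CPM, and Cdh13, a cadherin with a lipid anchor, at 235.5 and 34.7 CPM. Lower were paracingulin (Cgnl1) at 5.78 and 72.6 CPM, Panx1 at 7.90 and 37.4 CPM, and Ybx3, which binds ZO-1, at 85.1 and 226.5 CPM. Cell numbers 115 and 87 held 48.1% of the Jam2 reads and 50.8% of the Cdh2 reads of the basal class.

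**Figure D3:**
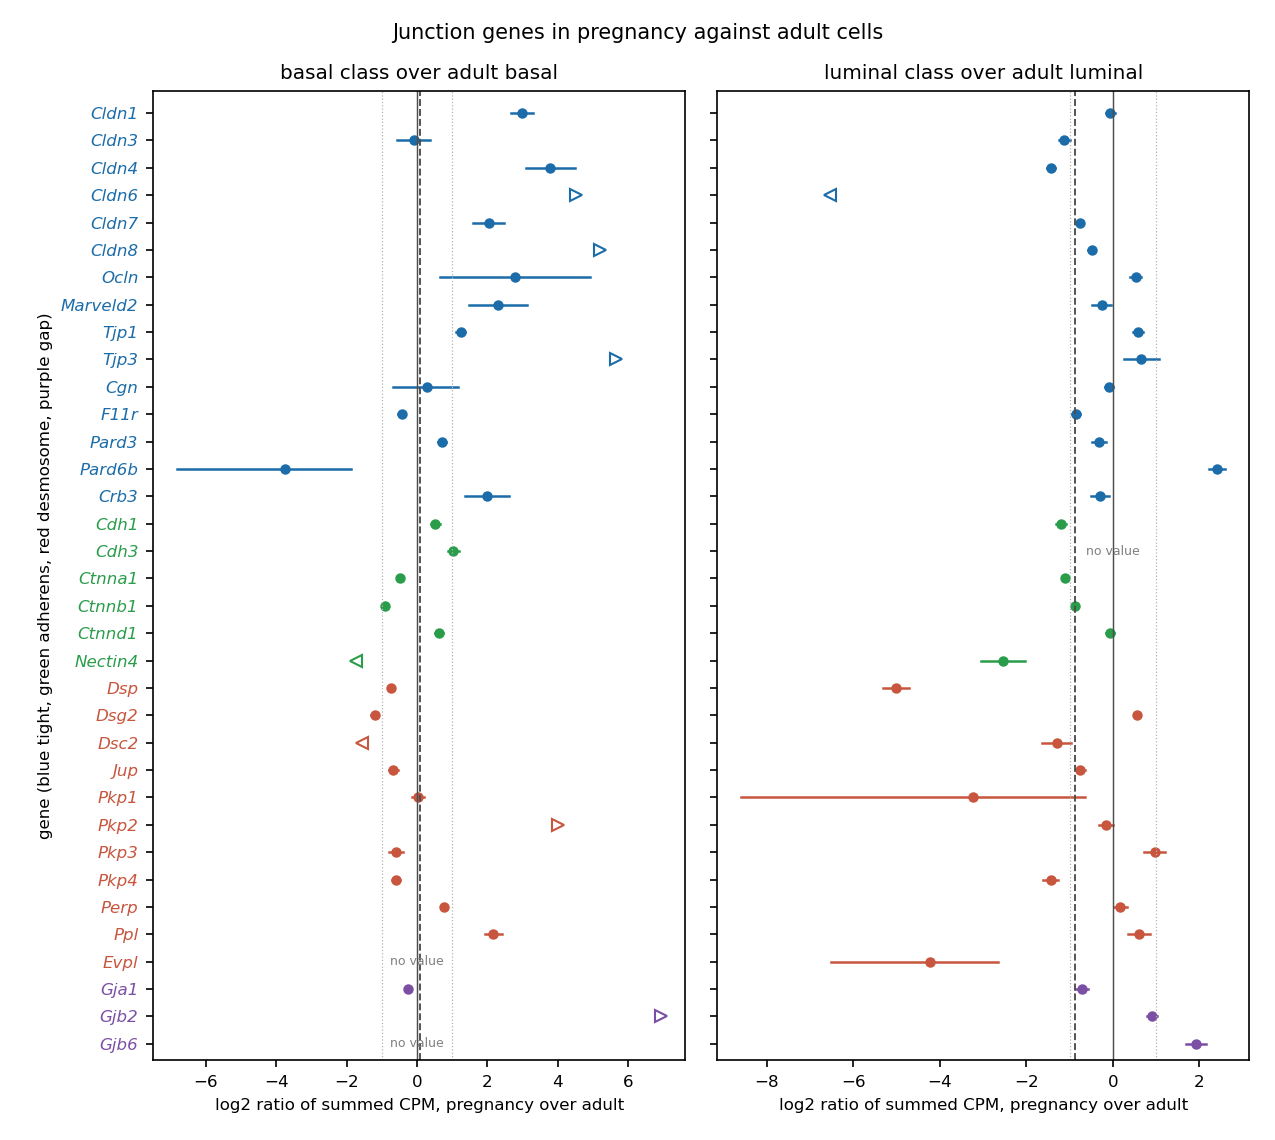
Log2 ratio of summed CPM, pregnancy over adult, of the 35 junction genes in basal cells (left) and luminal cells (right), with 95% counting intervals (bars), bounds (open triangles), 2-fold lines (dotted) and the median of all genes (dashed, 0.08 and -0.87). On the left most tight junction genes lie right of 0, and on the right Dsp lies at -5.01 and Pard6b at 2.41.

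In luminal cells the count moved with the scale and with the cells used. Milk genes took 33.4% of the luminal class reads, and the median of all 13801 genes tested was -0.87. CPM put 2 of 34 junction genes 2-fold or more higher and 11 lower, where 14.4% and 46.3% of all genes were. Relative to the median of all genes, 10 were higher and 5 lower, where 25.5% and 26.2% of all genes were. TMM scaling and leaving the milk genes out of the totals each gave 9 higher and 5 lower. Title numbers up to 55 alone gave 8 and 5 by CPM. Milk genes took 17.1% of the luminal class reads in those numbers and 39.2% above 55, so the milk share changed there too. The shares of all genes were not computed for these settings. Medians on the CPM scale were -0.30 for tight junction, -1.11 for adherens junction, -0.75 for desmosome and 0.90 for gap junction genes, or 0.57, -0.24, 0.13 and 1.77 less the median of all genes. Both scales are given for the listed genes that follow at least where the call differs between them.

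Dsp fell the most of the desmosome genes. It was found in 29 of 41 adult luminal cells and 5 of 30 cells of the luminal class (70.7% and 16.7%). Its median cell went from 113.3 CPM to 0, although 1 pregnancy cell reached 571.7 CPM. The sums were 378.4 and 11.8 CPM, a log2 ratio of -5.01 (-5.32 to -4.72), or -4.14 less the median of all genes. Both sets of pregnancy title numbers were low, at 22.0 CPM for numbers up to 55 and 8.07 CPM above. Against the 9 adult luminal cells led by progenitor markers, where Dsp was at 22.2 CPM, the ratio was -0.92, so the fall past 2-fold was against the cells led by mature markers.

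Other desmosome genes of luminal cells did not all follow Dsp. By CPM 5 of the 11 desmosome genes were 2-fold or more lower and 0 higher, where 46.3% and 14.4% of all genes were. Less the median of all genes 3 were lower and 4 higher, where 26.2% and 25.5% of all genes were. Dsg2 went from 348.7 to 515.6 CPM (0.56, or 1.44 less the median), was found in 37 of 41 and 27 of 30 cells, and its median cell went from 230.6 to 463.8 CPM. Pkp4 was lower at 38.2 and 103.8 CPM (-1.44, or -0.57 less the median), and Dsc2 at 10.9 and 26.7 CPM (-1.29, or -0.42). Neither held throughout, as Pkp4 was 0.09 in title numbers up to 55 and Dsc2 was 2.83 against the cells led by progenitor markers, which had it at 1.53 CPM. Pkp2 was nearly level in CPM (-0.15, or 0.73 less the median), and Jup was at -0.75 (or 0.13). Perp was nearly level in CPM too (0.17) but passed 2-fold less the median (1.04). Pkp3 (0.97) and Ppl (0.61) also passed 2-fold only less the median, at 1.84 and 1.49. In the luminal class 65.5% of the Pkp3 reads were in 1 cell. Evpl had 3 reads in the luminal class against 172 in adult luminal cells (-4.22, or -3.35 less the median). Pkp1 had 1 read against 29 (-3.24, or -2.37 less the median).

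Claudins remained widespread in luminal cells of pregnancy. Cldn7 was found in 29 of 30 cells of the luminal class and 36 of 41 adult luminal cells, at 140.9 and 240.1 CPM (-0.77, or 0.10 less the median). Cldn8 was found in 21 of 30 and 22 of 41 cells, at 178.1 and 251 CPM (-0.49, or 0.38), and its highest pregnancy cell reached 4560 CPM. Cldn4 was lower by CPM, at 119 and 319.1 (-1.42, -1.52 to -1.33), and its median cell went from 295.2 to 71.6 CPM, but it was -0.55 less the median. Cldn3 was at 85.1 and 184.8 CPM (-1.12, or -0.25) and Cldn1 at 106.3 and 110.9 CPM (-0.06, or 0.81). Cldn6 had no read in 30 cells, at least 93.3-fold under its adult level on the CPM scale. The adult reads lay in 13 cells, all led by mature markers or tied.

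Of the 15 tight junction genes, Pard6b was the one 2-fold or more higher on both scales. It was found in 7 of 41 adult luminal and 18 of 30 luminal class cells, and its median cell went from 0 to 25.7 CPM. The sums were 14.9 and 79.1 CPM (2.41, 2.22 to 2.60), or 3.28 less the median. It was 2.04 in numbers up to 55 and 2.52 above, and 0.42 against the 9 cells led by progenitor markers. Less the median, Tjp3 (1.54) and Tjp1 (1.46) also passed 2-fold, as did Ocln, whereas on the CPM scale they were 0.66, 0.58 and 0.53. Cgn (-0.09), Crb3 (-0.30), Marveld2 (-0.26), Pard3 (-0.32) and F11r (-0.85) were within 2-fold on both.

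By CPM 3 of the 5 adherens junction genes with a value were 2-fold or more lower, and less the median of all genes 1 was. Cdh1 was at 83.8 and 191.7 CPM (-1.19, or -0.32 less the median), in 20 of 30 and 33 of 41 cells. Ctnna1 was at 269.1 and 580.4 CPM (-1.11, or -0.24), Ctnnb1 at 402.2 and 738 CPM (-0.88) and Ctnnd1 at 157.5 and 164.8 CPM (-0.07, or 0.81). Nectin4 was lower on both scales, at 4.45 and 25.7 CPM (-2.53, or -1.65). Cdh3 had no read in the 30 cells, which allows a share of up to 10.0%.

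Of the connexins, Gjb6 was higher than in all adult luminal cells on both scales and Gjb2 less the median of all genes. Gjb2 was found in 19 of 30 luminal class and 10 of 41 adult luminal cells, with sums of 107.6 and 57.6 CPM (0.90, or 1.77 less the median), and it was -0.52 against the cells led by progenitor markers. Gjb6 was found in 9 of 30 cells and 1 of 41, at 41.2 and 10.9 CPM (1.92, or 2.79). With 96.7% of the adult reads in 1 cell led by progenitor markers, it was at 66.6 CPM in the 9 such cells, and the ratio against them was -0.69. Gja1 was at 53.6 and 87.9 CPM (-0.72), with 53.4% of the pregnancy reads in 1 cell.

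Of the further junction genes, 58 had a value for luminal cells. By CPM 13 were higher and 22 lower (median -0.45), where 14.4% and 46.3% of all genes were. Less the median of all genes 19 were higher and 12 lower (median 0.42), where 25.5% and 26.2% of all genes were. Ctnnal1 was at 65.9 and 5.16 CPM (pregnancy, then adult), Marveld3 at 90.6 and 37.1 CPM, and the nectin-like Pvr at 37.7 and 15.75 CPM. Lower were the claudin genes Cldn10 at 12.0 and 216.8 CPM and Cldn12 at 7.30 and 106.8 CPM, and delta-catenin (Ctnnd2) at 8.54 and 40.7 CPM.

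Within pregnancy, the layers were again compared with each other. By CPM the luminal class was 2-fold or more higher than the basal class in 17 of 34 genes and lower in 8. Of 13545 genes, 19.7% and 42.9% were, with a median of all genes of -0.67. Less that median, 17 junction genes were higher and 7 lower, where 3914 and 4097 of the 13545 genes were. The listed tight junction genes had 11 of 15 higher and 2 lower (median 2.59). The lower ones were Pard3 (-1.55, or -0.89 less the median) and Cldn6, whose 10 basal reads were in 1 cell. Less the median, Cldn6 was the only tight junction gene lower. The 31 further tight junction genes with a value gave 5 higher and 13 lower (median -0.53). Less the median of all genes they gave 8 and 10 (median 0.14). Cdh1 no longer passed 2-fold, at 83.8 and 107.1 CPM (-0.35, or 0.31 less the median), and Dsg2 did, at 515.6 and 165.8 CPM (1.64, or 2.30). Dsp, which was within 2-fold in the adult sorts (-0.64, or -1.13 without the top cell of each), was at 11.8 and 351.7 CPM (-4.90).

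The 28 mixed cells held genes of both layers. Their class was set by passing the thresholds of both lineage lists. Gja1 was found in 28 of 28 and Gjb2 in 17 (60.7%), so all cells with Gjb2 had both. Cdh3 was found in 11 and Cldn7 in 22, and 8 shared both. Perp was at 398.1 CPM, between 62.2 CPM in the luminal and 1210 CPM in the basal class. Ocln was low in them, at 6.75 CPM against 77.9 CPM in the luminal class, whereas Cldn8 was at 153.3 CPM. A pair of cells captured together would also show genes of both layers, and this was not tested.

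**Figure D4:**
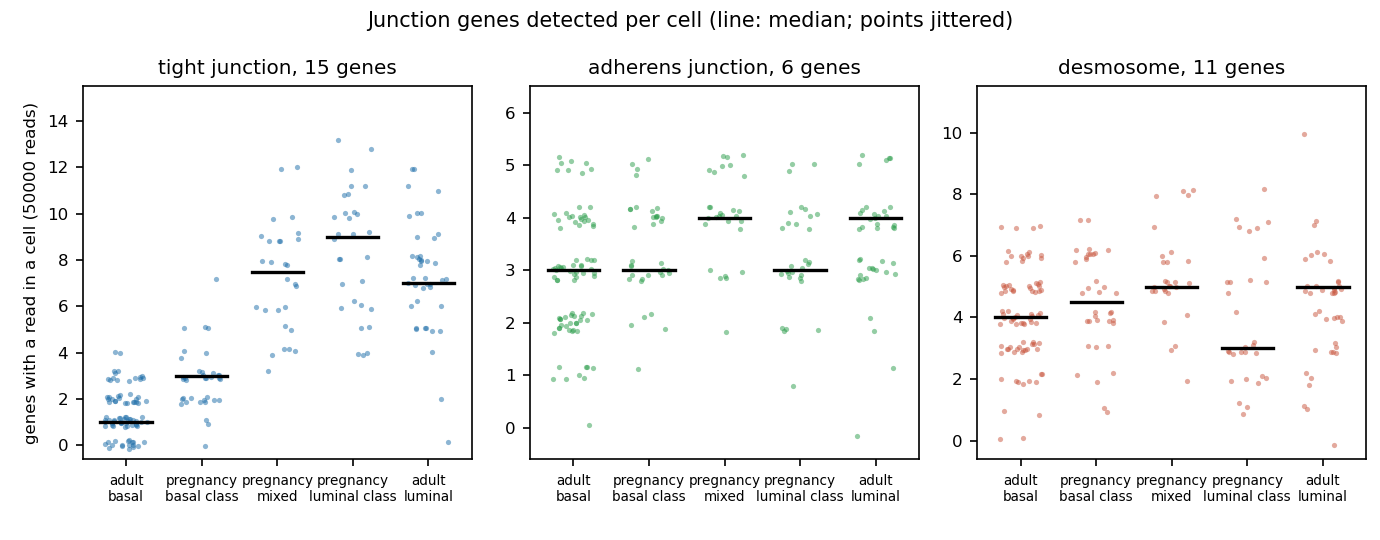
Number of tight junction, adherens junction and desmosome genes with 1 or more reads in a cell thinned to 50000 reads (points, jittered, with the median as a line) in 5 sets of cells. The median of the tight junction genes is 1 in adult basal, 3 in the basal class, 7.5 in mixed, 9 in the luminal class and 7 in adult luminal cells.

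Counted per cell at equal depth, tight junction genes had the widest range of medians. The median cell had 1 of 15 tight junction genes in adult basal, 3 in the pregnancy basal class, 7 in adult luminal and 9 in the pregnancy luminal class. The median of adherens junction genes was 3 of 6 in adult basal cells, 3 in the basal class, 4 in adult luminal cells and 3 in the luminal class. The median of desmosome genes was 4, 4.5, 5 and 3 of 11 in the same order. With the milk genes left out and cells thinned to 20000 reads, the tight junction medians were 1, 2, 6 and 7. At 5 or more reads per gene the tight junction medians were 1, 1, 5 and 4, so adult basal cells and the basal class were level there and the luminal order turned. Genes of every kind were also detected in unequal number, with medians of 2276, 3009.5, 3433 and 3067 genes per cell at 50000 reads in the same order, and the part of this in the counts was not tested.

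Pregnancy cells with title numbers up to 55 and above 55 differed in depth of gene detection, and the labels do not say what the numbers stand for. The basal class had 20 cells in the first set and 16 in the second, with medians of 3478.5 and 2550.5 genes per cell at 50000 reads. In the first set 12 junction genes were higher than in adult basal cells and 3 lower, with a tight junction median of 1.59, where 31.3% and 23.6% of 13696 genes were. In the second set 5 were higher and 7 lower, with a median of -0.59, where 25.3% and 35% of 13176 genes were. Markers of another type were found in 9 of the 20 cells and 2 of the 16, and the fibroblast list summed to 5171 and 450.5 CPM and the immune list to 344.2 and 0 CPM, and their part in the difference was not tested. Ppl gave 2.93 in the first set and had no read in the second. Cldn4 gave 3.91 and 3.58 and Perp 0.40 and 1.19, in the same direction in both. The luminal class had medians of 4586 and 2479 genes per cell in the first and the second set. In the same order Ppl was at 90.5 and 2.19 CPM there, Pkp3 at 111.1 and 2.52 CPM and Pkp4 at 110.7 and 12.3 CPM. Dsg2 was at 707.2 and 447 CPM and Pard6b at 61.0 and 85.5 CPM, both above the adult sum in either set.

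**Figure D5:**
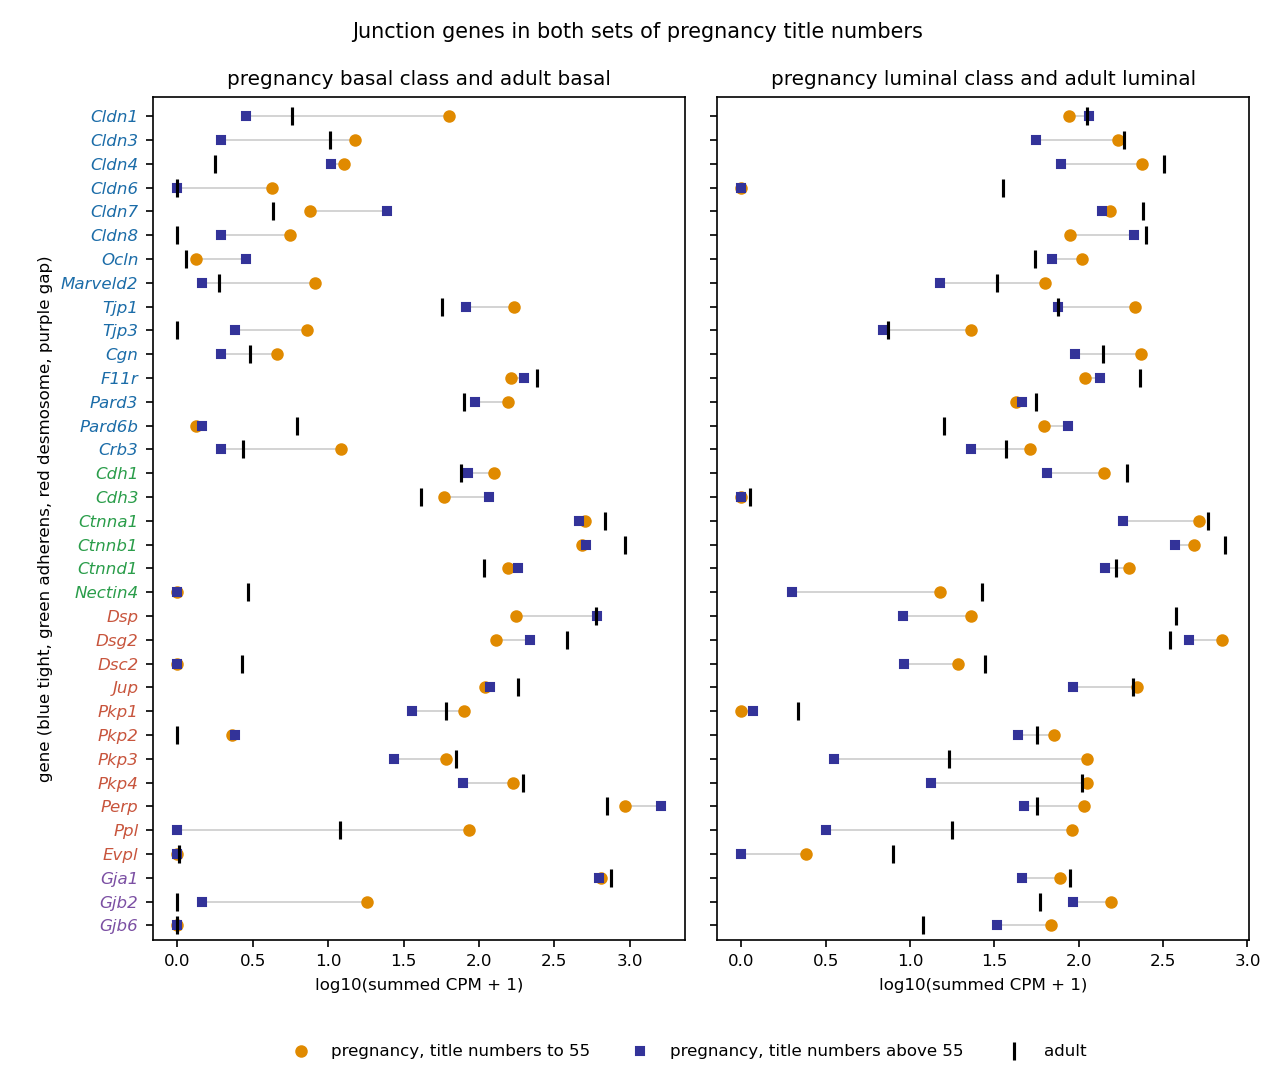
Summed level (log10 of CPM + 1) of the 35 junction genes in pregnancy cells with title numbers up to 55 (circles) and above 55 (squares) beside the adult sort (bar), for basal (left) and luminal (right) cells. Ppl lies far apart between the circle and the square in both panels, and Gja1 lies close in the basal panel.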

How the data were processed

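Gene counts were read for 278 cells, 1 table per cell. The authors mapped read pairs to mm10 with Subread (version 1.4.6 in the submitters' processing notes) and assigned them with featureCounts and a built-in RefSeq annotation. The deposited values are raw counts per Entrez gene beside the exon length of each gene, which served for RPKM. Counting by strand was not given in the sources used here, and the kit marks no strand. The combined table, which repeats these counts, was left aside.

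Of 27179 gene IDs, 25275 had a symbol. Following the study's methods, the 1904 IDs without one (1.20% of reads) were dropped together with 15 mitochondrial genes (9.54%) and 124 ribosomal ones (1.72%). Ratios used 15312 genes at 1 CPM or more in 3 or more cells, and all 35 junction genes passed. The median cell had 291808 assigned reads in the adult basal sort, 686377 in the adult luminal sort and 178923 in pregnancy, which limits what a single cell can show for a scarce gene.

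Groups came from the labels. Pregnancy classes used 191 basal and 177 luminal list genes, with thresholds of 19.6% and 15.8%. The genes and lists were chosen with earlier results of these data known, as was the division of pregnancy cells at title number 55. Ratios carry exact conditional intervals of both sums. Where a sum was 0, 3 counts took its place as the floor of the group and the ratio is a bound, and no ratio is given where both sums are at or under their floor. Genes past 2-fold with 20 CPM or more in the higher set were named, at most the 12 largest in each direction, and of the further junction genes the 3 largest, of which 1 is not reported here. Since all 35 genes were accounted for, others of them have values too. Doublets were handled without a caller, since the authors viewed capture sites before sequencing, and mixed cells were kept apart. Python 3.11.15, pandas 2.3.3, scipy 1.17.1 and edgeR 4.0.16 (TMM factors) were used, and ratios and intervals were tested on simulated data. Differences between the FVB/NJ strain and the reference were not examined.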

Additional observations from a re-analysis of the deposited data

How the results depend on the processing

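Every choice was varied singly. Over the alternatives 152 of 172 counts and medians kept within 1.5 times the main count or, for a median, within its spread. That spread came from the ratios of the genes themselves, and for adherens junction genes it ran from the lowest to the highest. Such a median had little room to count as moved, so the 152 says little about the medians. The count of genes lower in adult luminal than adult basal cells was 9 in place of 5 with progenitor-marked luminal cells alone, where Dsc2 turned to -0.16. For basal cells, genes higher in pregnancy (14) were 8 without the cell with the most reads and 5 in title numbers above 55. Genes lower (4) were 2 with class thresholds at the 20th percentile and 7 in numbers above 55, where the tight junction median (2.03) was -0.59, Cldn1 -1.34 and Ppl -2.97. Cdh3 turned to -0.20 with mixed cells in both classes. For luminal cells, genes higher in pregnancy (2) were 9 with TMM, 9 with milk genes left out, 5 with equal weight per cell, 6 with 20th percentile thresholds, 6 with mixed cells in both classes, 8 in numbers up to 55, 5 against progenitor-marked cells and 10 less the median of all genes. Genes lower (11) were 5 with TMM, 5 with milk genes left out, 7 with 20th percentile thresholds, 5 in numbers up to 55 and 5 less the median, where the tight junction median (-0.30) was 0.57. Dsc2 (2.83) and Gjb6 (-0.69) turned against progenitor-marked cells, and Pkp4 (0.09) in numbers up to 55. Apart from the scaling settings, whose construction shows the cause, the cause was not tested. Of 464 values of named genes, 407 kept direction and side of 2-fold, 50 crossed it and 7 turned. Leaving out cells with markers of another type, leaving out adult luminal cells with basal genes, subtracting the median of all genes and thinning without milk genes were chosen after seeing the data. No paired analysis was possible because the numbers in the titles count cells and no test was run.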
